A study of Caenorhabditis elegans with 4 samples.

Results

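Central carbon metabolism is covered here by 40 genes for enzymes of glycolysis, gluconeogenesis, the pyruvate dehydrogenase complex, the tricarboxylic acid (TCA) cycle and the glyoxylate cycle. They were taken from a fixed list of gene symbols, without the glyceraldehyde-3-phosphate dehydrogenase (gpd) genes, by matching the sequence name of each array probe to its gene. All 40 were measured, among 13685 genes tested. The RNA came from whole Caenorhabditis elegans larvae of 2 genotypes. Animals labelled isp-1(qm150);ceh-23(ms23), called the double mutant here, had an ms23 mutation in ceh-23, a gene for a homeodomain transcription factor, on top of qm150, and their comparator carried qm150 in isp-1 alone. Both thus share the isp-1 mutation, which lies in the gene for the Rieske subunit of complex III of the respiratory chain, so the comparison asks what ms23 adds within a strain whose electron transport is impaired. Neither wild type animals nor ceh-23 single mutants were analysed here. All animals were synchronized at the middle of the L4 stage at 20 C, feeding on OP50 bacteria. The labels give 3 biological replicates but do not say how they were separated.

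Each of the 4 arrays carried both genotypes, 1 in Cy5 and 1 in Cy3, and the value used is the log2 ratio of double mutant over isp-1, so positive ratios stand for more transcript in the double mutant. Replicate 1 was hybridised once in each dye orientation, and the average of its arrays was used, which leaves n = 3. In the sentences below, values on the arrays are given in the order dye flip array of replicate 1, first array of replicate 1, replicate 2 and replicate 3. Median spot signals were 109.5 to 216 for Cy5, over a background of 59.5 to 61, and 164 to 258.5 for Cy3, over a background of 38 to 63, with no saturated spot. The number of arrays limits the precision. The probe for ceh-23 had a ratio of -0.09 (adjusted p = 0.459) and that for isp-1 of 0.08 (adjusted p = 0.535). Where the ceh-23 probe lies relative to the ms23 lesion is not given in the sources used here, so this does not check the labels.

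Glycolysis breaks glucose down to pyruvate in the cytosol, and gluconeogenesis runs the path backwards through a small set of bypass enzymes. Pyruvate dehydrogenase turns pyruvate into acetyl-CoA, which the TCA cycle oxidises in mitochondria, and the resulting NADH feeds the electron transport chain that includes complex III. Nematodes also have the glyoxylate cycle, which lets them build sugar from the acetyl-CoA of stored fat and has been studied in long-lived C. elegans mutants and in dauer larvae.

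None of the 40 genes passed the test at an adjusted p of 0.05 (limma, Benjamini-Hochberg over all genes), while 3.37% of all genes tested did, 0.775% higher and 2.59% lower in the double mutant. The lowest adjusted p among the 40 was 0.0575, for pck-1. Of the 461 genes called, 459 had an adjusted p between 0.049 and 0.05, and the count was 103 without replicate 1 and 1 without replicate 2. With dye as a covariate 10 of the 40 were called, 7 higher and 3 lower, where 30.3% of all genes were called. Without replicate 3, 10 were called, 6 higher and 4 lower, where 43.3% of all genes were. Their share was 25% in both cases, below that of all genes.

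The ratios of the 40 genes were small. The median was 0.13, with quartiles of 0.01 and 0.19, and the ratios ranged from -0.49 to 0.46. Over all genes tested the median was -0.01, with wider quartiles of -0.27 and 0.17. The largest ratio in either direction, that of hxk-1, corresponded to 1.41-fold. All 40 of the 95% confidence intervals of the fit lay within 2-fold either way, with a lowest bound of -0.95 and a highest of 0.80, and 11 of them excluded 0 before any adjustment for multiple testing.

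More of the genes had a ratio above 0 than below it. The mean ratio was positive for 31 of the 40 (77.5%), against 48.3% of all genes. On single arrays 28, 29, 24 and 28 of the 40 were positive. The median over the 40 genes was 0.17 in replicate 1, 0.08 in replicate 2 and 0.07 in replicate 3. Over all genes tested these medians were -0.02, -0.05 and 0.02. Without replicate 1 the median of the 40 was 0.05, beside -0.02 over all genes, and 23 were positive. The sign was the same on all 4 arrays for 14 genes (35%), of which 12 were positive and 2 negative, while among all genes 46.2% kept their sign, 20.9% positive and 25.3% negative. At an unadjusted p of 0.05 there were 11 genes (27.5%), 8 higher and 3 lower, against 35.9% of all genes, 13.6% higher and 22.3% lower. That count was 2 without replicate 1, where 14.9% of all genes reached this level, and 4 without replicate 2, where 17% did. Without replicate 3 it was 15, where 51.6% of all genes did. Ratios of at least 1.5-fold with the same sign on all arrays occurred in 0 of the 40, against 9.27% of all genes (1.37% higher and 7.89% lower).

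**Figure D1:**
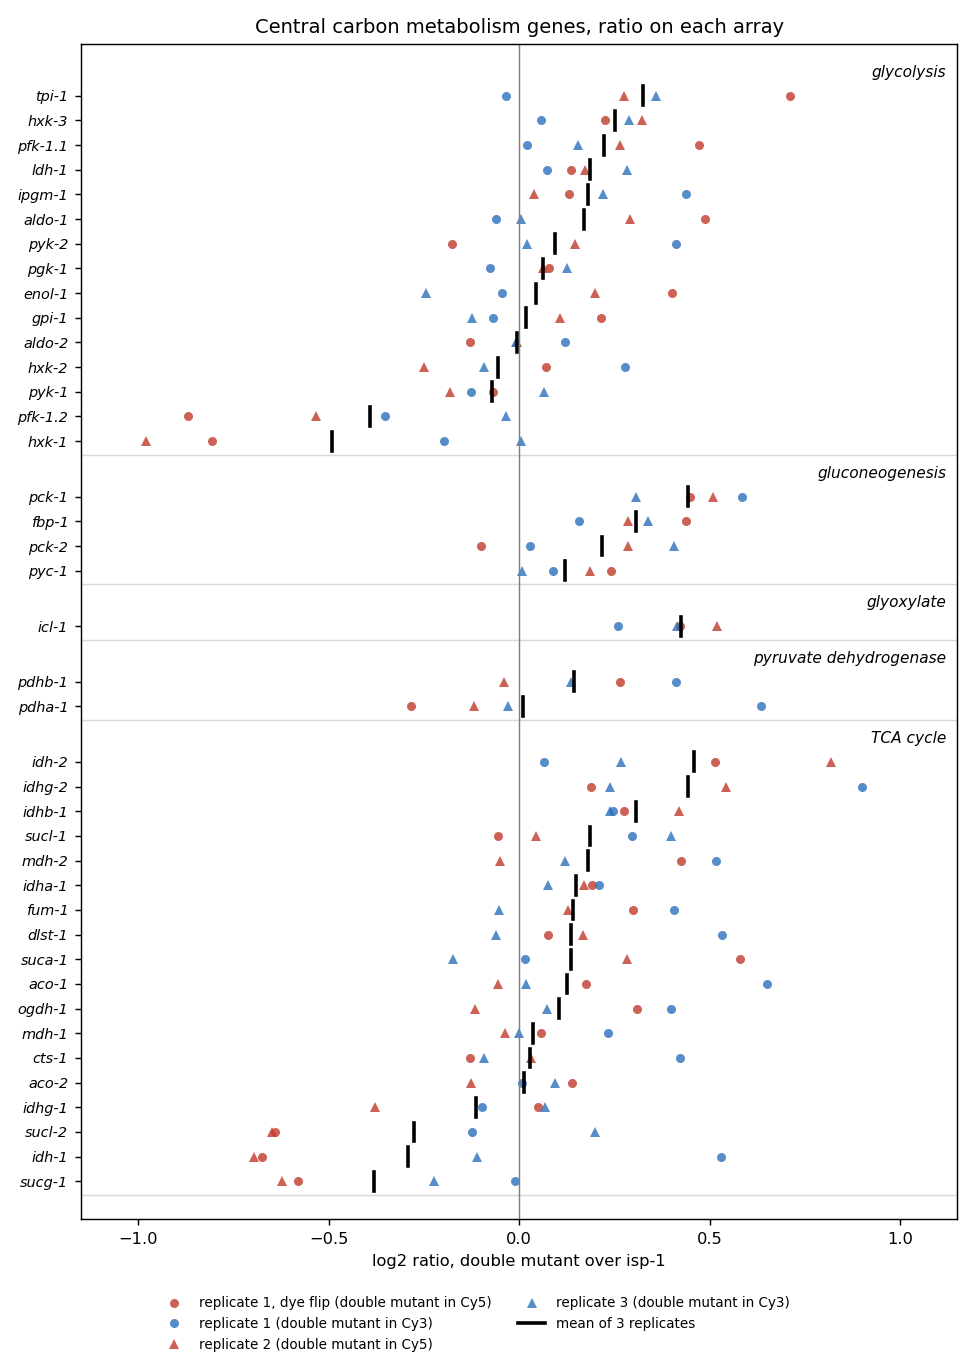
Log2 ratio of double mutant over isp-1 on each of the 4 arrays for the 40 central carbon metabolism genes, ordered by role and by mean ratio; colour gives the dye of the double mutant, shape the slide, and the black bar the mean of 3 replicates. Means lie between -0.49 and 0.46, and for most genes the points of single arrays fall on both sides of 0.

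**Figure D2:**
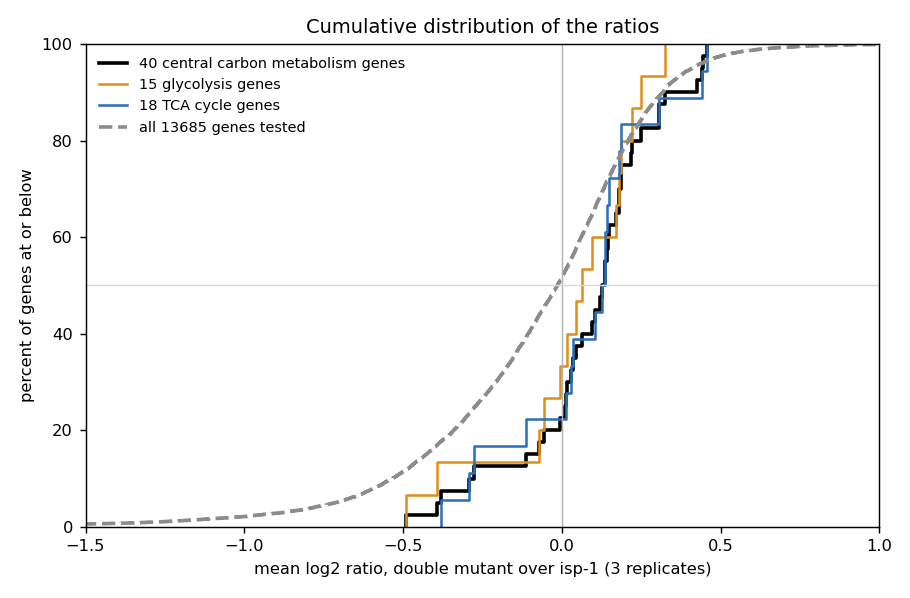
Cumulative percent of genes at or below each mean log2 ratio of double mutant over isp-1, for the 40 central carbon metabolism genes, their 15 glycolysis and 18 TCA cycle genes, and all 13685 genes tested. The curve of the 40 genes crosses 50% at 0.13 and that of all genes at -0.01, and the 40 genes lack the long tail of negative ratios.

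The genes with the smallest p-values among the 40, pck-1 and icl-1, belong to gluconeogenesis and to the glyoxylate cycle, although neither passed the test. All 4 gluconeogenesis genes had a positive mean, with a median of 0.26 (0.23 in replicate 1, 0.28 in replicate 2 and 0.32 in replicate 3). Phosphoenolpyruvate carboxykinase, which converts oxaloacetate to phosphoenolpyruvate and commits carbon to sugar synthesis, has the genes pck-1 and pck-2 in this list. The normalized signal of pck-1 (W05G11.6, chromosome III) was 34818, 36077, 30508 and 16051 in the double mutant, against 25498, 24059, 21441 and 12982 in isp-1. On each array the double mutant gave the higher signal, though across arrays the genotypes overlapped, since both were dimmest in replicate 3. The ratios were 0.45, 0.58, 0.51 and 0.31, which gave a mean of 0.44 ± 0.12 (SD, n = 3), or 1.36-fold, with a 95% interval of 0.20 to 0.69 and an adjusted p of 0.0575.

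Its paralog pck-2 (R11A5.4, chromosome I) had ratios of -0.10, 0.03, 0.29 and 0.41. They were near 0 in replicate 1 and positive in the other two replicates, with a mean of 0.22 ± 0.23 (SD, n = 3; adjusted p = 0.238). Fructose bisphosphatase, which opposes phosphofructokinase, is encoded by fbp-1 (K07A3.1, chromosome I). Its signal was 7722, 5601, 4944 and 2618 in the double mutant, against 5701, 5025, 4060 and 2073 in isp-1, higher in the double mutant on each array. The ratios of 0.44, 0.16, 0.28 and 0.34 gave replicate values that lay close together, with a mean of 0.31 ± 0.03 (SD, n = 3; adjusted p = 0.0868). The arrays of replicate 1 differed by 0.28, which does not enter this SD because they were averaged. For pyc-1, the pyruvate carboxylase that supplies oxaloacetate, the mean was 0.12 ± 0.10 (SD, n = 3; adjusted p = 0.41).

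Isocitrate lyase and malate synthase, the enzymes that set the glyoxylate cycle apart from the TCA cycle, are fused in C. elegans into 1 protein, encoded by icl-1 (C05E4.9, chromosome V). Its signal was 17575, 15690, 13008 and 8307 in the double mutant, against 13124, 13107, 9078 and 6230 in isp-1. The double mutant was again the higher genotype within each array, in both dye orientations. The ratios were 0.42, 0.26, 0.52 and 0.42, with a mean of 0.42 ± 0.09 (SD, n = 3), or 1.34-fold, a 95% interval of 0.18 to 0.67 and an adjusted p of 0.0579.

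**Figure D3:**
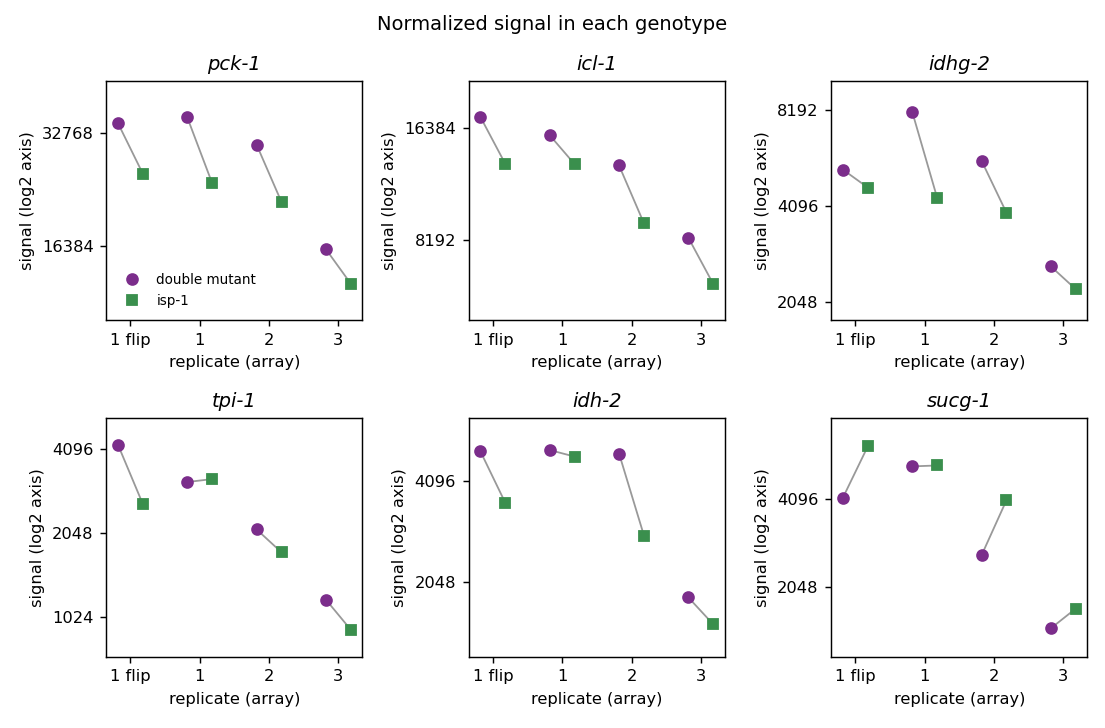
Normalized signal (log2 axis) of 6 central carbon metabolism genes in the double mutant (circles) and in isp-1 (squares) on each array, with lines joining the genotypes of 1 array. For pck-1, icl-1, idhg-2 and idh-2 the double mutant lies above isp-1 on all 4 arrays, for sucg-1 below, and for tpi-1 above on all but the first array of replicate 1.

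The glycolysis genes had a median ratio of 0.06, beside -0.01 over all genes. By replicate it was 0.12 in replicate 1, 0.11 in replicate 2 and 0.02 in replicate 3, beside -0.02, -0.05 and 0.02 over all genes. In replicate 3 the glycolysis genes thus lay at the median of all genes. Of the 15 genes, 10 had a positive mean, and 5 kept 1 sign on all arrays. Without replicate 3 the median was 0.13. Hexokinase, which traps glucose in the cell as glucose 6-phosphate, has 3 genes with unlike values. The signal of hxk-1 (F14B4.2, chromosome I) was 706, 1071, 649 and 500 in the double mutant, against 1235, 1227, 1279 and 499 in isp-1. The double mutant was thus lower on 3 arrays and nearly equal in replicate 3. The ratios of -0.81, -0.20, -0.98 and 0.01 gave a mean of -0.49 ± 0.49 (SD, n = 3; adjusted p = 0.124), so that the SD was as large as the ratio. They averaged -0.89 over the arrays with the double mutant in Cy5 and -0.10 over those with it in Cy3.

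Ratios of hxk-2 (H25P06.1, chromosome I) were 0.07, 0.28, -0.25 and -0.09, with a mean of -0.06 ± 0.21 (SD, n = 3). They had both signs, and their adjusted p was 0.747. Those of hxk-3 (Y77E11A.1, chromosome IV) were 0.22, 0.06, 0.32 and 0.29, all positive, with a mean of 0.25 ± 0.10 (SD, n = 3; adjusted p = 0.132). Differences among these genes were not tested.

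Phosphofructokinase catalyses the committed step of glycolysis, and its 2 genes also had ratios of opposite sign. For pfk-1.1 (Y71H10A.1, chromosome X) the ratios were 0.47, 0.02, 0.27 and 0.15, with a mean of 0.22 ± 0.06 (SD, n = 3; adjusted p = 0.155). For pfk-1.2 (C50F4.2, chromosome V) they were -0.87, -0.35, -0.53 and -0.03. This gene was lower in the double mutant on every array, but by little in replicate 3, and its mean was -0.39 ± 0.31 (SD, n = 3; adjusted p = 0.109). With the double mutant in Cy5 its ratios averaged -0.70, and with it in Cy3 -0.19. Its signal was 643, 881, 617 and 472 in the double mutant, against 1174, 1126, 894 and 483 in isp-1.

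In the middle of the pathway, aldolase splits fructose bisphosphate into triose phosphates, which tpi-1 interconverts. The ratios of aldo-1 were 0.49, -0.06, 0.29 and 0.01, with a mean of 0.17 ± 0.15 (SD, n = 3), and those of aldo-2 were -0.13, 0.12, -0.00 and -0.01, with a mean of -0.01 ± 0.003 (SD, n = 3). For aldo-2 the arrays of replicate 1 cancelled, which left the smallest spread between replicates. The triose phosphate isomerase tpi-1 (Y17G7B.7, chromosome II) had a signal of 4245, 3117, 2107 and 1179 in the double mutant, against 2595, 3195, 1743 and 919 in isp-1. The double mutant was higher on 3 arrays and slightly lower on the first array of replicate 1. Its ratios were 0.71, -0.04, 0.27 and 0.36, with a mean of 0.32 ± 0.04 (SD, n = 3; adjusted p = 0.0806). The arrays of replicate 1, which share their RNA, differed by 0.745 for this gene, more than the mean ratio itself.

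Among the remaining steps down to pyruvate, glucose-6-phosphate isomerase, gpi-1, had a mean of 0.02, the phosphoglycerate kinase pgk-1 of 0.06 and the enolase enol-1 of 0.04. The cofactor-independent phosphoglycerate mutase ipgm-1 was positive on all arrays, with a mean of 0.18 ± 0.13 (SD, n = 3; adjusted p = 0.249). Pyruvate kinase forms pyruvate and ATP at the end of the pathway. The ratios of pyk-1 were -0.07, -0.13, -0.18 and 0.07, with a mean of -0.07, and those of pyk-2 were -0.18, 0.41, 0.15 and 0.02, with a mean of 0.095. Both sets hold values of either sign. Lactate dehydrogenase, which regenerates NAD+ from pyruvate when respiration is limited, is encoded by ldh-1. Its mean ratio was 0.19 ± 0.09 (SD, n = 3; adjusted p = 0.222), positive on all arrays.

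For the subunits of pyruvate dehydrogenase the spread between arrays exceeded the mean ratio. The alpha subunit gene pdha-1 had a mean of 0.01, with the arrays of replicate 1 at -0.29 and 0.63, and the beta subunit gene pdhb-1 had a mean of 0.14 ± 0.19 (SD, n = 3; adjusted p = 0.382).

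The TCA cycle group of 18 genes also holds cytosolic forms of its enzymes, among them aco-1 and idh-1. The median of the group was 0.13, and 14 of the 18 had a positive mean. This rested largely on replicate 1, with medians of 0.23 in replicate 1, -0.00 in replicate 2 and 0.07 in replicate 3. Without replicate 1 the median was 0.01. Only 9 of the 18 were positive in replicate 2, while 13, 15 and 12 were positive on the other arrays. At the entry to the cycle, the citrate synthase gene cts-1 had a mean of 0.03.

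Aconitase converts citrate to isocitrate. The ratios of aco-1, the cytosolic form, were 0.17, 0.65, -0.05 and 0.02, with a mean of 0.12 ± 0.25 (SD, n = 3). Those of aco-2, the mitochondrial form, were 0.14, 0.01, -0.13 and 0.09, with a mean of 0.01 ± 0.12 (SD, n = 3). The first array of replicate 1 stood above the others for aco-1 alone of the pair.

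Genes of isocitrate dehydrogenase held both the highest mean ratio of the 40 and some of the most uneven ones. The enzyme oxidises isocitrate to oxoglutarate, in an NAD+-dependent form of several subunits and in NADP+-dependent forms encoded by idh-1 and idh-2. Among the NAD+-dependent subunits, idhg-2 (C30F12.7, chromosome I) had a signal of 5337, 8107, 5691 and 2648 in the double mutant, against 4684, 4348, 3904 and 2244 in isp-1. The double mutant was higher on all arrays, by most on the first array of replicate 1. The ratios were 0.19, 0.90, 0.54 and 0.24, with a mean of 0.44 ± 0.18 (SD, n = 3) and an adjusted p of 0.0638.

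The related gamma subunit gene idhg-1 (F35G12.2, chromosome III) had ratios of 0.05, -0.10, -0.38 and 0.07, with a mean of -0.11 ± 0.24 (SD, n = 3; adjusted p = 0.527). Its values spread around 0. The beta subunit gene idhb-1 (C37E2.1, chromosome X) had a signal of 3030, 2890, 2432 and 1218 in the double mutant, against 2505, 2435, 1820 and 1032 in isp-1. Its ratios of 0.27, 0.25, 0.42 and 0.24 were even across dyes and replicates, with a mean of 0.31 ± 0.10 (SD, n = 3; adjusted p = 0.0937). The alpha subunit gene idha-1 was also positive on all arrays, at a lower mean of 0.15 ± 0.06 (SD, n = 3; adjusted p = 0.303).

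Of the NADP+-dependent pair, idh-2 (C34F6.8, chromosome X), the mitochondrial form, had a signal of 5024, 5070, 4950 and 1835 in the double mutant, against 3520, 4847, 2809 and 1524 in isp-1. Its ratios were 0.51, 0.06, 0.82 and 0.27, all positive and larger where the double mutant was in Cy5. The mean was 0.46 ± 0.31 (SD, n = 3; adjusted p = 0.0848). The cytosolic form idh-1 (F59B8.2, chromosome IV) had ratios of -0.68, 0.53, -0.70 and -0.11. Its arrays of replicate 1 disagreed in sign and differed by 1.21, and the mean was -0.29 ± 0.35 (SD, n = 3; adjusted p = 0.207).

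Downstream, the oxoglutarate dehydrogenase gene ogdh-1 had a mean of 0.10 and dlst-1, for the succinyltransferase of the same complex, of 0.14. Succinyl-CoA ligase makes a nucleoside triphosphate directly in the cycle and pairs an alpha subunit with a beta subunit that selects ADP or GDP. The beta subunit of the GDP form, sucg-1 (C50F7.4, chromosome IV), had a signal of 4122, 5268, 2624 and 1481 in the double mutant, against 6170, 5306, 4043 and 1730 in isp-1. It was lower in the double mutant on each array, by almost nothing on the first array of replicate 1. The ratios were -0.58, -0.01, -0.62 and -0.22, with a mean of -0.38 ± 0.21 (SD, n = 3; adjusted p = 0.0866). They averaged -0.60 where the double mutant was in Cy5 and -0.12 where it was in Cy3.

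The beta subunit of the ADP form, suca-1, had a mean of 0.13 ± 0.27 (SD, n = 3). The alpha subunit genes had means of 0.19 for sucl-1 and -0.28 ± 0.43 for sucl-2 (SD, n = 3; adjusted p = 0.283). Ratios of sucl-2 averaged -0.65 with the double mutant in Cy5 and 0.04 with it in Cy3. The fumarase gene fum-1 had a mean of 0.14. Malate dehydrogenase closes the cycle. The ratios of mdh-1 were 0.06, 0.23, -0.04 and 0.00, with a mean of 0.04, and those of mdh-2 were 0.42, 0.52, -0.05 and 0.12, with a mean of 0.18 ± 0.27 (SD, n = 3). For mdh-2 the positive mean came mainly from replicate 1.

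The array carried 123 probes for the 40 genes. Of these, 117 were kept, and all 117 were well above background in both genotypes on all 4 arrays. Thus 15 genes rested on 1 probe and 25 on several. Within the 25, the probe means over the replicates had a median range of 0.147 per gene. Gene values on the 4 arrays had a median range of 0.446, the larger range in 24 of the 25. The first range follows averaging over replicates and the second follows averaging over probes. They are thus unlike measures and do not show how well probes agreed on 1 array. The probe means of a gene all had the same sign in 18 of the 25. The 6 probes kept for icl-1 had ratios from 0.34 to 0.46, the 6 of tpi-1 from 0.22 to 0.43, the 5 of fbp-1 from 0.23 to 0.34 and the 3 of hxk-1 from -0.50 to -0.48. The 2 kept probes of pck-1 had 0.33 and 0.56. By contrast, the means of the 9 probes of aco-2 lay between -0.09 and 0.15, on both sides of 0. On the dye flip array alone, the kept probes of icl-1 ran from -0.004 to 0.85. Those of aco-2 ran from -0.45 to 0.56 on that array. Several of the genes with the larger ratios, among them idhg-2, idh-2, sucg-1, pfk-1.2 and hxk-3, had 1 probe and thus no such check. Whether a probe can also bind the transcript of a close paralog was not tested.

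**Figure D4:**
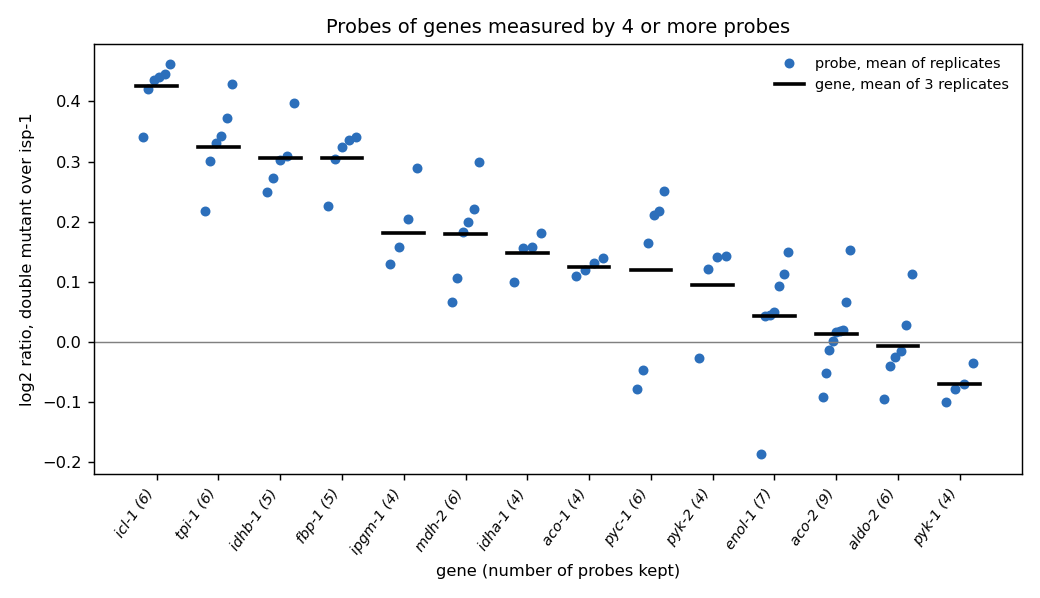
Mean log2 ratio of double mutant over isp-1 for each probe (points) of the 14 central carbon metabolism genes with 4 or more kept probes, with the gene mean as a black bar; the number of probes stands in parentheses. All points of icl-1, tpi-1, idhb-1 and fbp-1 lie above 0.2, while those of aco-2, aldo-2 and enol-1 lie on both sides of 0.

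The size of the ratios was set beside the difference between the arrays of replicate 1, which hold the same RNA with exchanged dyes. That difference is between single arrays. It is not the error of the mean ratio, which averages 3 replicates. The median absolute difference between these arrays was 0.282 for the 40 genes and 0.312 for all genes, while the median absolute mean ratio was 0.159 for the 40 and 0.208 for all. The difference exceeded the mean ratio in 27 of the 40 genes (67.5%), against 61.5% of all genes, and the arrays disagreed in sign for 13 of the 40 (32.5%), against 33.1%. The widest differences were those of idh-1 (1.21) and pdha-1 (0.92). For pck-1, icl-1 and idhb-1 the arrays differed by 0.14, 0.16 and 0.03, less than the mean ratio.

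Across the 40 genes, ratios correlated most between the dye flip array and replicate 2, which both held the double mutant in Cy5 (r = 0.812). The correlation was 0.173 between the arrays of replicate 1, 0.257 between the first array and replicate 2, and 0.307 between the dye flip array and replicate 3. Between replicates 2 and 3 it was 0.458. It was lowest, at 0.07, between the first array of replicate 1 and replicate 3, which both held the double mutant in Cy3. These are descriptions over genes that share arrays and dyes, with n = 40 and no test. Over all kept probes, taken singly and not as gene means, the correlations between arrays lay between 0.496 and 0.78. The dye flip array and replicate 2 were the highest pair there too (0.78), while the first array of replicate 1 and replicate 3 had 0.509. These are not like for like with those of the 40 genes. The slides also differ, since replicate 1 is alone on its slide while replicates 2 and 3 share the other. Within the slide of replicates 2 and 3 the median was 0.05 for the 40 genes, 0.08 for glycolysis, 0.01 for the TCA cycle and 0.33 for gluconeogenesis.

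**Figure D5:**
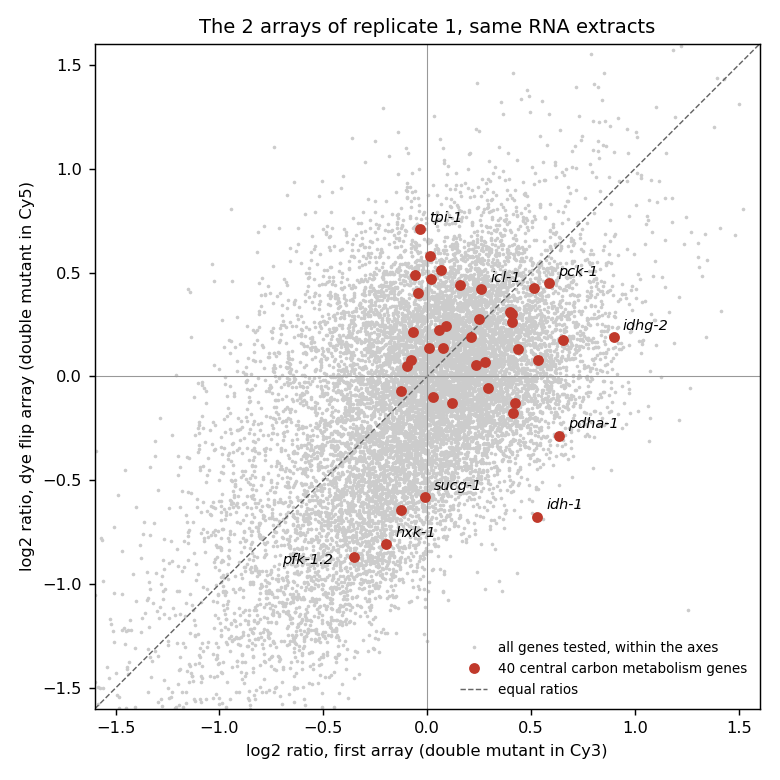
Log2 ratio of double mutant over isp-1 on the dye flip array (vertical) against the first array of replicate 1 (horizontal), which hold the same RNA extracts, for the 40 central carbon metabolism genes (red) and all genes tested within the axes (grey); the dashed line marks equal ratios. The genes idh-1 and pdha-1 lie far below the line, tpi-1 far above it, and pck-1 and icl-1 near it with both ratios positive.

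A second list held 32 genes of the surrounding pathways, among them succinate dehydrogenase, the pentose phosphate pathway, pyruvate transport and the metabolism of glycogen and trehalose. Of these, 31 were matched and tested, and 0 passed the threshold, beside 3.37% of all genes. At an unadjusted p of 0.05 there were 3 (9.68%), against 35.9% of all genes. Their median ratio was 0.07, with 20 positive and 11 negative. The trehalose 6-phosphate synthase gene tps-1, which makes the precursor of trehalose, a storage sugar of nematodes, had ratios of 0.94, 0.37, 0.64 and 0.37. It was positive on all arrays, with a mean of 0.56 ± 0.16 (SD, n = 3) and an adjusted p of 0.0501, next to the threshold. Its paralog tps-2 had a mean of 0.24 (adjusted p = 0.167).

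Negative means were found for the ATP citrate lyase gene acly-2 (-0.52 ± 0.48, SD, n = 3; adjusted p = 0.107) and the succinate dehydrogenase flavoprotein gene sdha-2 (-0.40 ± 0.40, SD, n = 3; adjusted p = 0.136). For both, replicate 3 was near 0, at 0.01 for acly-2 and 0.05 for sdha-2. The cytochrome b subunit gene of succinate dehydrogenase, mev-1, had 0.19, the dihydrolipoamide dehydrogenase gene dld-1 had 0.20, the glycerol-3-phosphate dehydrogenase gene gpdh-1 had 0.28 and the pyruvate dehydrogenase phosphatase gene pdp-1 had -0.16.

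These are RNA levels of whole animals, in which fewer cells of a type and less RNA per cell cannot be told apart, and markers of other tissues moved with genotype. Transcripts of all tissue lists were detected, and no listed marker on the array was at background on all arrays in both genotypes. The vitellogenins, yolk proteins made in the adult intestine, had a median ratio of -1.87. All 6 were negative on every array, and 5 passed the adjusted threshold. Their summed signal ranged over the arrays from 31786 to 72018 in the double mutant, against 132492 to 293848 in isp-1. The major sperm proteins had a median of -1.21. All 20 tested were negative on every array, and 10 passed the adjusted threshold. Their sum ranged from 353801 to 520618 in the double mutant, against 494574 to 1587870 in isp-1. All 16 germline and oocyte genes were negative on every array and 8 passed the adjusted threshold, with a median of -0.96 and sums of 35879 to 69501 in the double mutant, against 54779 to 175587 in isp-1. Their calls lay as close to the threshold as those of other genes, with a lowest adjusted p of 0.0494.

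The lists for body wall muscle, pharynx, intestine, hypodermis and neurons had positive medians, unlike the vitellogenins, and none of their genes passed the test. The median was 0.22 for body wall muscle, where all 15 genes were positive, 0.57 for pharynx, where 8 of 9 were positive, 0.05 for intestine, where 7 of 10 were, 0.32 for hypodermis, where 6 of 8 were, and 0.34 for neurons, where all 10 were. Within the hypodermis list, col-19, a collagen of the adult cuticle, had a ratio of -1.56, negative in every replicate (adjusted p = 0.0501), and within the pharynx list pqn-8 had -0.25. The summed muscle signal ranged from 198409 to 544833 in the double mutant, against 206265 to 436276 in isp-1. The pharynx signal ranged from 7302 to 17643 in the double mutant, against 3749 to 13148 in isp-1, and the intestine signal from 158477 to 410414 in the double mutant, against 138940 to 438044 in isp-1. Hypodermis ranged from 41394 to 96646 in the double mutant, against 37224 to 96422 in isp-1, and neurons from 7769 to 18992 in the double mutant, against 6830 to 15764 in isp-1. The median of the 40 metabolic genes, 0.13, lay between those of intestine and muscle. A difference in developmental stage between the genotypes cannot be told apart here from other effects of genotype. The part that stage, or these differences in tissue and germline RNA, played in the ratios of the metabolic genes was not tested.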

How the data were processed

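Per the labels' protocols, total RNA (100 ng) was amplified to cRNA and labelled with Cy3 or Cy5. Per the file headers, arrays of a design on build ce4 were quantified with Agilent Feature Extraction 10.5.1.1 (protocol GE2_105_Dec08). The deposited intensity values are the median pixel intensity of spot and local background in each channel, not normalized, beside intensities that the authors' software had background-subtracted and dye-normalized. The deposited log10 ratios set processed Cy5 over Cy3 on every array, whichever genotype was in Cy5. Those of the series table differed from the scanner's by less than 0.005 on each array and had a median of 0. The other deposited columns used are flags for background, saturation and outliers.

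In R 4.3.3 with limma 3.58.1, the median intensity was corrected by normexp (offset 50) and normalized by loess within arrays, with control and outlier spots at weight 0. Outlier spots, which numbered between 8 and 496 per array, were then left out. From the deposited intensities log2 ratios were computed, with the sign set by the labelled dyes so that the double mutant is on top. A probe was kept if either genotype was well above background in every replicate (26246 of 43603 probes), and kept probes were averaged per gene. Names came from the RefSeq gene table of WBcel235, which is another build than the design's, so no coordinates are given. The arrays of replicate 1 were averaged and 3 values per gene tested against 0 (lmFit, eBayes, two-sided, Benjamini-Hochberg over 13685 genes, 6.10 degrees of freedom in all). The biological replicates' separation is not stated, so p-values measure the spread between these samples. Values for ceh-23 and isp-1 came from the fit without the filter.

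Every gene of the list is named. Values on each array are given for the 12 with the smallest unadjusted p and for the hxk, pfk, aldo, pyk, pck, mdh, aco, idhg and idh genes, and 8 genes of the second list are named by smallest p. Members and lists were chosen with earlier results of these data known. Alternatives varied background correction, signal, normalization, filter, outliers, probe choice, moderation, dye, slide and replicates.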

Additional observations from a re-analysis of the deposited data

How the results depend on the processing

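The count of all genes past the threshold, 461 (106 higher and 355 lower), depended on most settings: 1491 with an offset of 0, 2 without background correction, 1734 with the scanner's log ratio (758 higher and 976 lower), 1736 with the series table (759 higher and 977 lower), 0 with median centring (1476 at an unadjusted p of 0.05 in limma, the tool used), 1 without the filter, 755 with a strict filter, 1 with outlier spots kept, 977 with the brightest probe, 4151 with dye as a covariate, 1264 with slide as a covariate, 733 with the dye flip array alone and 777 with the first array alone. An alternative chosen after seeing the data, leaving outlier spots out only after loess, gave 2. Leaving out 1 replicate gave between 1 and 5939, namely 103 without replicate 1, 1 without replicate 2 and 5939 without replicate 3. The causes were not tested. Quantile normalization of average intensities leaves ratios unchanged by construction.

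Of the 40 central carbon metabolism genes, 10 passed with dye as a covariate (fbp-1, hxk-1, icl-1, idh-2, idhb-1, idhg-2, pck-1, pfk-1.2, sucg-1 and tpi-1), 10 without replicate 3 (the same but with sucl-2 for fbp-1), and 0 under each of the other alternatives, so that leaving out a replicate gave 0 to 10. Either fit has 1 residual degree of freedom per gene. Leaving out 1 replicate gave medians of 0.051 (without replicate 1) to 0.143 for the 40 genes, 0.0628 to 0.132 (without replicate 3) for glycolysis and 0.0088 (without replicate 1) to 0.149 for the TCA cycle. The ratio of pck-1 stayed between 0.33 and 0.51 and that of icl-1 between 0.38 and 0.47 in all alternatives. Other ratios moved by over 1.5 times: without replicate 2 the ratio of hxk-1 was -0.25 (-0.74 without replicate 3), that of idh-2 was 0.28, and those of idh-1 and sucl-2 were both -0.09. Genes near 0 changed sign, at most 8 of the 40 in 1 setting (without replicate 1). The comparison was paired by design, because each value is already a ratio of both genotypes on 1 array, so no further pairing was applied. The precision is limited by 3 replicates. The arrays of replicate 1, which share their RNA, often differed by more than the mean ratio, though this difference is not the error of the mean. Dye and array effects cannot be told apart in that difference.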
